A study of Mus musculus with 24 samples.

Results

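NOTCH signaling runs between touching cells. A ligand of the Jagged or Delta family on one cell binds a NOTCH receptor on its neighbor, the receptor is cut by an ADAM protease and then by gamma-secretase, and the freed intracellular domain joins the DNA-binding protein RBPJ to switch on targets such as the HES and HEY repressors and Nrarp. In the airway this pathway is known for the choice between secretory and ciliated fates and for the upkeep of basal cells, the progenitors of the airway lining. The genes described here are 10 of the pathway, of 14557 gene symbols with a row in the epithelial libraries: the receptors Notch1, Notch2 and Notch3, the ligands Jag1 and Jag2, the receptor modifier Lfng, the transcription factor Rbpj, and the targets Hes1, Hey1 and Nrarp. They were chosen by name, and for each gene the values are those of 1 Ensembl transcript, the one whose count averaged highest across the 12 epithelial libraries.

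The study exposed mouse lung organoids, small clusters of cells grown in a gel, to fibers of nylon 6,6, a textile plastic. Each well was seeded with 200000 EpCAM+ epithelial cells from wild-type female C57BL6 mice and 200000 cells of the CCL206 lung fibroblast line (male, ddY strain), and held no fibers (control), 12000 fibers or 30000 fibers of 12 by 31 µm for 7 days. Epithelial cells were then pulled down with anti-EpCAM beads. Each dose has 4 epithelial libraries, 1 from each of 4 mice whose cells were isolated separately, so every mouse gave a library to every dose, while the fibroblasts in all wells were the same line.

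The libraries with 30000 fibers stood apart. Counts summed over the representative transcripts were 7204371 to 9743738 in the controls, 6878550 to 10583357 with 12000 fibers and 2799765 to 3723250 with 30000 fibers. Mitochondrial transcripts took 5.20% to 7.77%, 5.33% to 6.91% and 14.3% to 16.3% of those counts. With 30000 fibers the median log2 fold change against control was 0.53 for the shortest of 5 classes of transcript length and -0.23 for the longest. A transcript that ends at least 400 bases upstream of the representative one had a median log2 ratio to it of -1.13 to -1.10 in the controls, -1.09 to -1.08 with 12000 fibers and -1.73 to -1.67 with 30000 fibers, so transcripts ending upstream held relatively fewer counts at the high dose. The part of depth, length and 3′ end in the results at 30000 fibers was not tested beyond the alternatives given. The epithelial label was checked on markers: the 11 pan-epithelial genes summed to 6781 to 7855 CPM, 6923 to 7761 CPM and 3818 to 4523 CPM in control, 12000 and 30000, while the 13 listed fibroblast genes, with Fn1 the most abundant, summed to 8590 to 13342, 15416 to 16811 and 14258 to 17290 CPM. CPM is the count scaled to the library's total after TMM adjustment.

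With 12000 fibers, 7 of the 10 NOTCH genes fell and none rose. Notch2, Rbpj and Hes1 were the others. With 30000 fibers all 10 differed from control: 8 fell, and Rbpj and Hes1 rose. Between the doses 5 were lower at 30000 (Notch1, Notch2, Jag1, Jag2 and Lfng), 2 were higher (Rbpj and Hes1), and Notch3, Hey1 and Nrarp did not pass. A call means an adjusted p under 0.05 in edgeR's quasi-likelihood test over 13759 genes. These shares have to be read against a broad response, since 38.0% of all genes were called at 12000 against control (19.3% lower, 18.7% higher), 65.6% at 30000 against control (33.4% lower, 32.2% higher) and 55.4% between the doses (27.1% lower, 28.3% higher). The median log2 fold change of the 10 genes was -0.79, -1.45 and -0.55 in the 3 comparisons, and that of all genes was -0.003, -0.03 and -0.01. Both comparisons with control use the same 4 control libraries.

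The choice of scale matters at 30000 fibers. When all 67490 tested transcripts were fitted together instead of 1 per gene, an alternative added after the data were seen, the log2 fold changes of the representative transcripts moved by a median of 0.34 at 30000 against control and 0.34 between the doses, and by -0.004 at 12000 against control. The share of representative transcripts called lower then went from 33.4% to 17.7% at 30000 against control and the share called higher from 32.2% to 50.2%. Between the doses the lower share went from 27.1% to 9.87% and the higher share from 28.3% to 49.8%. All 10 NOTCH genes were called in the same direction at 30000 against control on that scale, but the falls were smaller: Notch3 was at -0.22 (-0.56 with 1 transcript per gene), Notch2 at -0.18 (-0.52) and Jag1 at -0.68 (-1.02). Of all transcripts, 29.5%, 63.5% and 57.9% were called in that fit at 12000 against control, 30000 against control and between the doses.

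**Figure D1:**
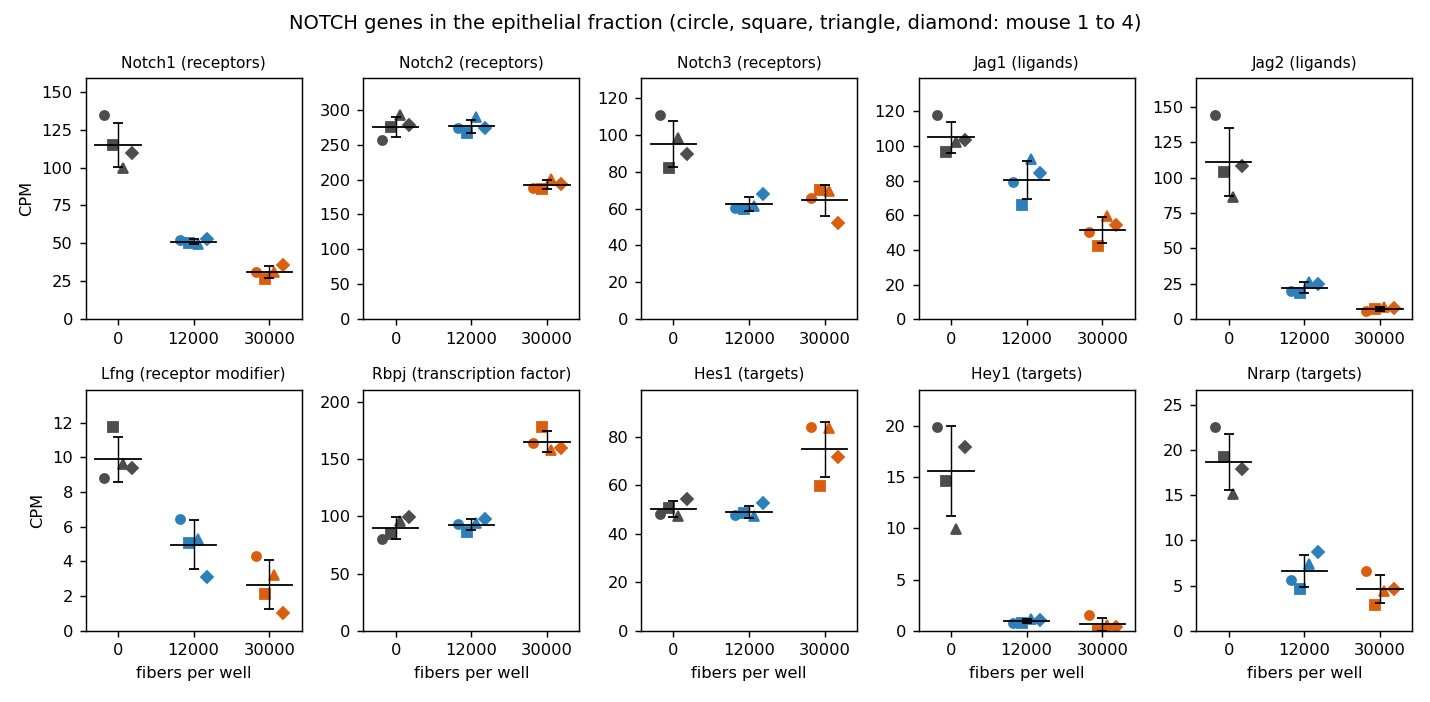
CPM (vertical axis, linear from 0) of the 10 NOTCH genes in the epithelial libraries at 0, 12000 and 30000 fibers per well, 1 point per mouse, with the mean as a horizontal line and the SD (n = 4) as the error bar. Jag2, Hey1, Nrarp and Notch1 drop already at 12000 fibers, whereas Rbpj and Hes1 are level up to 12000 and higher at 30000.

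Upstream sequence of 4 of these genes is shown because they behaved differently while all belong to the same circuit: Nrarp, Notch1 and Lfng fell at both doses and Rbpj rose at 30000. RBPJ binds DNA at a core of TGGGAA, and HES and HEY repressors can bind the N-box CACNAG. Both were searched on both strands, with TTCCCA and CTNGTG as their other-strand forms, in the 250 bases before each RefSeq start site (GRCm38.p6), which were available for 8 of the 10 genes. Capitals mark matches. Each run is in the 5′ to 3′ direction of its gene and stops before the first base that GENCODE M21 places in an exon.

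Nrarp, chr2:25180508-25180757, plus strand: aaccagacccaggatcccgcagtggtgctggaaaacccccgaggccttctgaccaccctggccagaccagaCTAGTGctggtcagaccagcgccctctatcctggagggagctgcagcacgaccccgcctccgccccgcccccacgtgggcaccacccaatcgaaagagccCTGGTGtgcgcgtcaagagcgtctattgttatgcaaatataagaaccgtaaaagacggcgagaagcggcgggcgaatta
Lfng, chr5:140607091-140607319, plus strand: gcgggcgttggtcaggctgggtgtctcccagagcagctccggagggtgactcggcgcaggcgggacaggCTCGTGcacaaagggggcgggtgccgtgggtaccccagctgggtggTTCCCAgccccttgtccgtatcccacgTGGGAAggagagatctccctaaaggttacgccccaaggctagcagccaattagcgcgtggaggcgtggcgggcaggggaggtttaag
Notch1, chr2:26503825-26504072, minus strand: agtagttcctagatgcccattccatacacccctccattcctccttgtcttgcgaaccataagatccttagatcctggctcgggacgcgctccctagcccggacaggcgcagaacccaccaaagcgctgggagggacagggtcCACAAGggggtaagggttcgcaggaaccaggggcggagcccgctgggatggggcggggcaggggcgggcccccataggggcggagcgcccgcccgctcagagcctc
Rbpj, chr5:53590096-53590213, plus strand: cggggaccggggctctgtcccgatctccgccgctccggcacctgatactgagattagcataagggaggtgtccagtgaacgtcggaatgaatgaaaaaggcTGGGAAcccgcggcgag

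Lfng held TGGGAA at 135 to 130 bases before its start, on the minus strand, and at 108 to 103 bases, on the plus strand. The latter match is part of the longer GTGGGAA at 109 to 103 bases (other strand TTCCCAC). Rbpj held TGGGAA at 149 to 144 bases and again, outside the run shown, at 65 to 60 bases. Nrarp held no TGGGAA in this window and CACNAG at 179 to 174 and 79 to 74 bases. Notch1 held CACNAG at 108 to 103 bases, and Lfng at 181 to 176 bases. Among the searched genes not shown, Jag1 and Jag2 also fell at both doses and held neither TGGGAA nor CACNAG. Notch2 held 1 CACNAG and Notch3 held 2, and neither held TGGGAA. Whether the motifs go with the dose pattern was not tested. Of 32851 RefSeq promoter windows of this length, 21.6% held TGGGAA, 5.42% GTGGGAA and 36.7% CACNAG, so most of these matches are of a common kind, and a match is not a binding site.

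Among the receptors, Notch1 fell steeply with dose, Notch3 fell to a similar level at both doses, and Notch2 fell at 30000 while it was not called at 12000. Their transcripts, of 8016 to 10500 bases, belong to the longest length class, whose median at 30000 against control was -0.23. Notch1 (ENSMUST00000028288, chr2:26457903-26503822, minus strand, 34 exons) is the receptor known for basal and secretory progenitors. The control libraries of mouse 1 to 4 held 135, 115, 99.9 and 109 CPM of Notch1. With 12000 fibers the values were 52.5, 50.1, 49.5 and 52.8 CPM, and with 30000 fibers 30.95, 26.5, 31.2 and 35.7 CPM. The 3 groups did not overlap, as was the case in the falling direction for 18.7% of all genes at 12000 and 29.4% at 30000 against control. Notch1 was 2.24-fold lower at 12000 (log2 fold change -1.16 ± 0.08 SE, adjusted p = 9.1e-09) and 3.69-fold lower at 30000 (-1.88 ± 0.10, adjusted p = 3.3e-12), and it fell further between the doses (-0.72 ± 0.11, adjusted p = 9.5e-06). The direction held in 4 of 4 mice each time. In the fit of all transcripts the Notch1 difference between the doses was -0.38 ± 0.10 (adjusted p = 0.0031).

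Notch2 (ENSMUST00000079812, chr3:98013538-98150361, plus strand, 34 exons), a receptor known in the airway for the secretory fate, gave 257, 275, 292 and 278 CPM in the controls of mouse 1 to 4 and 274, 267, 289 and 274 CPM with 12000 fibers. These groups overlapped, and the log2 fold change was 0.00 ± 0.06 (95% interval -0.13 to 0.14, adjusted p = 0.98). With 30000 fibers Notch2 stood at 188, 187, 201 and 194 CPM, below every other library. It was 1.43-fold lower than control (-0.52 ± 0.06, adjusted p = 3.9e-07) and 1.43-fold lower than at 12000 (adjusted p = 5.8e-07). In the fit of all transcripts these differences shrank to -0.18 ± 0.07 and -0.18 ± 0.07, still called lower (adjusted p = 0.021 and 0.024).

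Notch3 (ENSMUST00000087723, chr17:32120820-32166852, minus strand, 33 exons) is known in the airway for cells leaving the basal state. It was at 111, 82.0, 98.6 and 89.4 CPM in the controls, 60.3, 59.8, 61.6 and 68.2 CPM with 12000 fibers, and 65.8, 70.2, 69.5 and 52.4 CPM with 30000 fibers. Both exposed groups lay below all controls and overlapped each other. Notch3 was 1.52-fold lower at 12000 (-0.61 ± 0.09, adjusted p = 3.7e-05) and 1.47-fold lower at 30000 (-0.56 ± 0.10, adjusted p = 6.6e-05). In the fit of all transcripts the value at 30000 was -0.22 ± 0.10 (adjusted p = 0.047), and the second highest Notch3 transcript was not called at 12000 (-0.45 ± 0.19, adjusted p = 0.083). The representative transcript showed a difference between doses of 0.05 ± 0.10 (95% interval -0.19 to 0.28, adjusted p = 0.72). The value between doses depended on the scale and the transcript: it was 0.39, called higher (adjusted p = 0.0014), in the fit of all transcripts, and -0.96, called lower (adjusted p = 0.016), on the second highest Notch3 transcript, which holds far fewer counts. When the mean level of the fibroblast genes entered the fit, Notch3 was no longer called at either dose (-0.47, adjusted p = 0.057, and -0.32, adjusted p = 0.33). The summed fibroblast genes differed between control and exposed libraries without overlap, so this fit cannot separate their level from exposure.

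The balance of the receptors within a library moved with these changes. Divided by transcript length and set against Notch2, Notch1 stood at 0.464 ± 0.085 (SD, n = 4) in the controls, 0.206 ± 0.011 with 12000 fibers and 0.179 ± 0.020 with 30000. The same ratio for Notch3 was 0.455 ± 0.077, 0.297 ± 0.020 and 0.439 ± 0.060. Notch1 and Notch3 did not differ beyond their spread per length in the controls (12.1 ± 1.5 and 11.9 ± 1.5 CPM per kilobase, with overlapping ranges), and with 30000 fibers Notch1 was below Notch3 in every library (3.28 ± 0.40 and 8.04 ± 1.03). Notch4, the remaining receptor and one known mainly from endothelium, was at 0.78 to 1.74 CPM in the controls and was not called at either dose (log2 fold change -0.01 ± 0.40 and -0.37 ± 0.56).

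Of the ligands, Jag2 fell much more than Jag1. Jag2 (ENSMUST00000075827, chr12:112907819-112929776, minus strand, 26 exons), a Jagged ligand known from airway basal cells, was at 144, 104, 86.6 and 108 CPM in the controls. It read 19.8, 18.5, 26.1 and 24.9 CPM with 12000 fibers and 5.48, 7.06, 8.83 and 7.68 CPM with 30000 fibers, where the counts per library were 14, 20, 30 and 23. No group touched another, as for 25.6% of all genes in the falling direction between the doses. Jag2 was 4.99-fold lower at 12000 (-2.32 ± 0.15, adjusted p = 1.1e-07), 15.0-fold lower at 30000 (-3.91 ± 0.21, adjusted p = 1.3e-09) and 3.01-fold lower between the doses (-1.59 ± 0.25, adjusted p = 9.6e-05), in 4 of 4 mice each time. All 9 listed Jag2 transcripts were called lower at 30000 against control, with log2 fold changes of -4.77 to -3.02. Those other than the representative one held only 0 to 4 counts per library at 30000. They share bases with it and so counts, and the calls are not independent.

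Jag1 (ENSMUST00000028735, chr2:137081456-137116644, minus strand, 26 exons) gave 118, 96.4, 102 and 103 CPM in the controls. The 12000-fiber libraries held 79.2, 66.2, 92.6 and 84.1 CPM and the 30000-fiber libraries 50.1, 42.0, 59.8 and 54.5 CPM, again with no overlap. The fall was 1.30-fold at 12000 (-0.38 ± 0.10, adjusted p = 0.0047) and 2.02-fold at 30000 (-1.02 ± 0.11, adjusted p = 3.2e-07), and 1.55-fold between the doses (-0.64 ± 0.11, adjusted p = 0.00012). In the fit of all transcripts the difference between the doses was -0.29 ± 0.11 (adjusted p = 0.027). There the second Jag1 transcript was not called between the doses (-0.20 ± 0.15, adjusted p = 0.25). With that fibroblast term the Jag1 value at 12000 was -0.25 and was not called (adjusted p = 0.48). Per transcript length the ratio of Jag2 to Jag1 was 1.15 ± 0.17 (SD, n = 4) in the controls, 0.304 ± 0.021 with 12000 fibers and 0.156 ± 0.027 with 30000.

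The other ligands on the list with a row were Dll1, Dll4 and Dlk2, and all 3 were lower at 12000 and at 30000 against control. Of all genes, 19.3% and 33.4% were called lower in these comparisons. Dll3, Dlk1 and Dner had no row. Dll1, a canonical Delta ligand, ran from 11.5 to 16.0 CPM in the controls, 8.37 to 10.7 with 12000 fibers and 4.31 to 5.29 with 30000 (log2 fold change -0.62 ± 0.13 and -1.63 ± 0.18, adjusted p = 0.00083 and 1.6e-07). Dll4, another canonical ligand, was low, at 1.75 to 2.61 CPM in the controls, and fell by 1.19 and 1.13 on the log2 scale (adjusted p = 0.0059 and 0.026). Dlk2, a non-canonical ligand at 2.21 to 4.86 CPM in the controls, changed by -2.44 ± 0.37 and -2.13 ± 0.48. Of these 3 only Dll1 was also called between the doses (-1.02 ± 0.19, adjusted p = 0.00015).

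Lfng encodes lunatic fringe, a glycosyltransferase that lengthens sugars on NOTCH receptors and so changes which ligands they answer to. Lfng (ENSMUST00000031555, chr5:140607320-140615545, plus strand, 8 exons) was low throughout. Control libraries held 8.80, 11.8, 9.64 and 9.41 CPM, those with 12000 fibers 6.46, 5.06, 5.30 and 3.08 CPM, and those with 30000 fibers 4.31, 2.12, 3.24 and 1.00 CPM, from 11, 6, 11 and 3 counts. Both exposed groups were below all controls but overlapped each other. Lfng was 1.96-fold lower at 12000 (-0.97 ± 0.21, adjusted p = 0.0010) and 3.75-fold lower at 30000 (-1.91 ± 0.30, adjusted p = 1.3e-05). The difference between the doses (-0.94 ± 0.33, adjusted p = 0.020) was not called without the 12000-fiber library of mouse 1 (-0.76, adjusted p = 0.069), without the 30000-fiber libraries of mouse 2 (-0.85, adjusted p = 0.060) or mouse 4 (-0.66, adjusted p = 0.095), or in the fit of all transcripts (-0.60, adjusted p = 0.11).

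Of the other sugar-modifying enzymes of the pathway with a row, 1 of 4 was lower at 12000 and none higher, and 2 of 4 were lower and 1 higher at 30000. These shares, 25% and 75% called, stand beside 38.0% and 65.6% of all genes. Rfng, a second fringe, rose by 0.34 ± 0.12 at 30000 (adjusted p = 0.014). Pofut1, which adds the O-fucose that fringe enzymes extend, was 0.38 lower on the log2 scale at 30000 (log2 fold change -0.38 ± 0.12, adjusted p = 0.011).

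Rbpj went the other way from the receptors and ligands. Its product is the DNA-binding core of the pathway, a repressor without NOTCH and an activator with it. Rbpj (ENSMUST00000201912, chr5:53590368-53657362, plus strand, 13 exons) was at 79.8, 84.3, 96.2 and 99.8 CPM in the controls and 93.2, 86.1, 94.4 and 97.5 CPM with 12000 fibers, which overlapped (log2 fold change 0.04 ± 0.07, 95% interval -0.12 to 0.21, adjusted p = 0.68). All 4 libraries with 30000 fibers were higher, at 164, 178, 158 and 160 CPM. The rise was 1.83-fold over control (0.87 ± 0.08, adjusted p = 4.7e-09; 0.48, adjusted p = 0.044, when the mean level of the fibroblast genes entered the fit) and 1.78-fold over 12000 (0.83 ± 0.08, adjusted p = 1.6e-08), in 4 of 4 mice, beside 28.7% and 26.7% of all genes whose groups did not overlap in the rising direction. The representative Rbpj transcript is 5485 bases long and belongs to the longest length class, whose median at 30000 against control was -0.23. The 5 Rbpj transcripts tested were all called higher at 30000 against control in the fit of all transcripts, at 1.05 to 1.21. They share most of their bases and so most of their counts.

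The targets split. Hey1 and Nrarp fell at both doses, and Hes1 did not. Hey1 encodes a repressor of the HES and HEY family that NOTCH switches on, and its transcript (ENSMUST00000042412, chr3:8663359-8667256, minus strand, 5 exons) was nearly lost. The controls held 19.9, 14.6, 9.90 and 17.9 CPM of Hey1 from 172, 150, 76 and 177 counts. With 12000 fibers it was at 0.717, 0.799, 1.116 and 1.07 CPM from 8, 6, 8 and 8 counts, and with 30000 fibers at 1.57, 0, 0.589 and 0.334 CPM from 4, 0, 2 and 1 counts. Every exposed library was below every control. Hey1 was 17.0-fold lower at 12000 (-4.08 ± 0.29, adjusted p = 9.5e-09) and 25.5-fold lower at 30000 (-4.67 ± 0.42, adjusted p = 1.1e-08). The value at 30000 was -5.51 without the 30000-fiber library of mouse 1 and from -4.83 to -4.29 without each other library, so its size is loosely set. Both doses were near the counting limit, and the difference between them (-0.59 ± 0.69, 95% interval -2.16 to 0.98, adjusted p = 0.49) could not be resolved at this depth.

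Nrarp encodes an ankyrin-repeat protein that is induced by NOTCH and dampens it. Nrarp (ENSMUST00000104999, chr2:25180758-25183339, plus strand, 1 exon) gave 22.6, 19.3, 15.1 and 17.9 CPM in the controls, 5.65, 4.66, 7.39 and 8.71 CPM with 12000 fibers and 6.66, 2.82, 4.42 and 4.68 CPM with 30000 fibers. The exposed groups overlapped each other and stayed below all controls. The fall was 2.86-fold at 12000 (-1.52 ± 0.18, adjusted p = 1.8e-06) and 4.07-fold at 30000 (-2.02 ± 0.23, adjusted p = 3.1e-07), with -0.51 ± 0.27 between the doses (95% interval -1.12 to 0.10, adjusted p = 0.12).

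Hes1 encodes the repressor that NOTCH uses in the airway against the ciliated and neuroendocrine programs, and other pathways also drive it. Hes1 (ENSMUST00000023171, chr16:30065340-30067796, plus strand, 4 exons) was at 48.2, 50.9, 47.3 and 54.4 CPM in the controls and 48.0, 48.5, 47.6 and 52.9 CPM with 12000 fibers. These overlapped (log2 fold change -0.03 ± 0.09, 95% interval -0.23 to 0.17, adjusted p = 0.82). With 30000 fibers it reached 84.2, 59.97, 83.6 and 71.8 CPM, above every other library, a 1.49-fold rise over control (0.58 ± 0.09, adjusted p = 1.8e-05) and 1.52-fold over 12000 (0.61 ± 0.09, adjusted p = 1.6e-05).

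The Hes1 rise depended on which transcript and which length correction was used. Its representative transcript is 1468 bases long and lies in the shortest length class (up to 1803 bases), whose median at 30000 against control was 0.53, close to the 0.58 of Hes1 itself. With an offset for the length trend, Hes1 was at 0.22 and missed the threshold (adjusted p = 0.051). The second Hes1 transcript, ENSMUST00000161839, which ends 477 bases further upstream, was at -0.67 (adjusted p = 0.00079) against control and -0.52 (adjusted p = 0.0087) against 12000 when it stood for the gene. Its counts were 138, 171, 113 and 151 in the controls, 166, 100, 91 and 114 with 12000 fibers and 18, 18, 34 and 34 with 30000. With the counts of all 3 Hes1 transcripts summed, the rise was still called, at 0.39 (adjusted p = 0.0030).

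**Figure D2:**
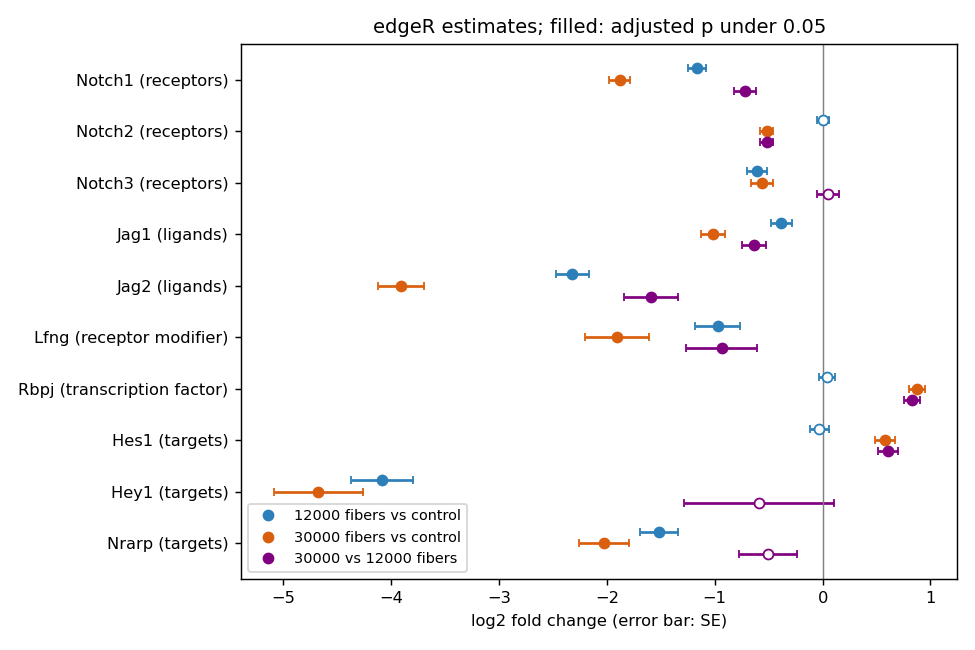
Log2 fold change (horizontal axis) with its SE for the 10 NOTCH genes in the 3 comparisons, from edgeR, filled where the adjusted p was under 0.05. Hey1 (-4.08 and -4.67) and Jag2 (-2.32 and -3.91) lie furthest left, and Rbpj and Hes1 are to the right of 0 in the comparisons with 30000 fibers.

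The other members were compared with their upstream-ending transcripts in the same way, as a description. The log2 ratio of that transcript to the representative one fell from -1.68 in the controls to -3.11 with 30000 fibers for Hes1, a difference of -1.43. The difference was -1.72 for Notch1, -1.14 for Notch3, -0.75 for Jag2, -0.63 for Lfng, -0.58 for Notch2 and -0.16 for Rbpj, and 0.08 for Jag1 and 0.18 for Hey1. The other Hey1 transcripts had 0 to 2 counts at 30000. Nrarp has a single listed transcript. At 12000 fibers these differences ran from -0.13 (Hes1) to 0.46 (Notch1). The Notch1 value rests on 1, 0, 0 and 1 counts of the upstream-ending transcript at 30000, so its size is set by the pseudocount. For Jag2 and Lfng the shift came from 1 library each, mouse 2 for Jag2 (log2 ratio -5.36, from 0 counts of the upstream-ending transcript) and mouse 3 for Lfng (-2.94). Both transcripts of Notch1, Notch2, Notch3, Jag1, Jag2, Lfng and Hey1 were called lower at 30000 against control in the fit of all transcripts, and both of Rbpj were called higher, so that only the Hes1 pair was called in opposite directions.

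**Figure D3:**
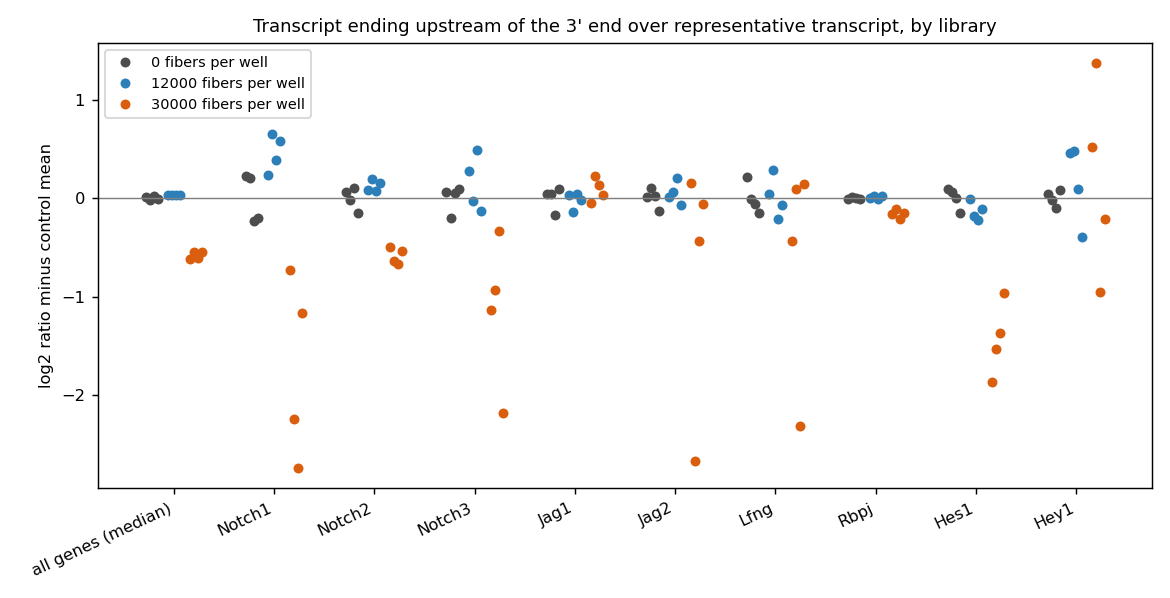
Log2 ratio of a transcript ending at least 400 bases upstream to the representative transcript, minus the control mean (vertical axis), for each library; the leftmost column is the median over 7394 genes. The orange points of Hes1 (18 to 34 counts of the upstream-ending transcript), Notch3 (2 to 13 counts) and Notch1 (0 to 1 counts, near the floor) at 30000 fibers lie below 0, while those of Jag1 and Rbpj stay near 0.

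Per kilobase of transcript, Hes1 was the highest of the 10 in every group, at 34.2 ± 2.2, 33.5 ± 1.7 and 51.0 ± 7.8 CPM per kilobase (SD, n = 4) in control, 12000 and 30000. In the controls Notch2 came next at 26.2 ± 1.4, then Jag2 at 21.7 ± 4.7, Jag1 at 18.7 ± 1.6 and Rbpj at 16.4 ± 1.7. The ranges of Notch2 and Jag2 overlapped, as did those of Jag2 and Jag1 and of Jag1 and Rbpj. Notch1, Notch3, Nrarp (7.25 ± 1.20), Hey1 (6.43 ± 1.80) and Lfng (4.30 ± 0.56) followed. With 12000 fibers Rbpj (16.9 ± 0.9) was the third and Jag2 (4.37 ± 0.73) the seventh. With 30000 fibers Rbpj (30.1 ± 1.7) passed Notch2 (18.3 ± 0.6), and Jag2 (1.42 ± 0.27), Lfng (1.16 ± 0.62) and Hey1 (0.257 ± 0.278) were the lowest. The transcripts ran from 1468 (Hes1) to 10500 bases (Notch2). None of these values was corrected for the length trend or the 3′ shift at 30000 fibers, which limits comparing ranks between the doses. Among the targets, the ratio of Nrarp to Hes1 per length went from 0.213 ± 0.039 through 0.0759 ± 0.0182 to 0.0347 ± 0.0081, with no overlap between the groups, a value that carries the limits given for Hes1.

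Other pathway genes were taken from a list of 54, of which 44 had a row and 43 were tested. At 12000 against control 13 fell and 5 rose, at 30000 against control 28 fell and 8 rose, and between the doses 24 were lower and 5 higher at 30000. In all 41.9%, 83.7% and 67.4% of the list were called, beside 38.0%, 65.6% and 55.4% of all genes. The medians were -0.07, -0.36 and -0.31, beside -0.003, -0.03 and -0.01 over all genes. Fitting all transcripts moved the representative ones by a median of 0.34 at 30000 against control and 0.34 between the doses. That shift is about as large as the -0.36 and -0.31 of this list. The list was not recounted in that fit or with the length-trend offset.

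The proteases that cut the receptor moved in both directions. Of 9 tested, 3 fell and 1 rose at 12000, and 6 fell and 3 rose at 30000, where 38.0% and 65.6% of all genes were called. Psenen, the smallest subunit of gamma-secretase, ran from 11.5 to 14.6 CPM in the controls, 11.7 to 15.0 with 12000 fibers and 43.0 to 49.0 with 30000, a log2 fold change of 1.80 ± 0.11 (adjusted p = 1.6e-11). Ncstn, its substrate-docking subunit, changed by -0.25 ± 0.06 at 12000 and -0.75 ± 0.06 at 30000 (adjusted p = 0.0016 and 2.1e-09). The receptor-cutting protease Adam17 changed by -0.36 ± 0.06 and -0.72 ± 0.07 (adjusted p = 0.00013 and 1.3e-08), and Adam10, the other such protease, by -0.21 ± 0.06 and -0.49 ± 0.06 (adjusted p = 0.0073 and 7.5e-07). Psen2, a catalytic subunit of gamma-secretase, was higher at 12000 (0.60 ± 0.15, adjusted p = 0.0029). None of these values was corrected for the length trend at 30000 against control, with a median of 0.53 in the shortest class and -0.23 in the longest.

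Cofactors of RBPJ changed by less. Of 12, 3 were lower and 1 higher at 12000 (33.3%, beside 38.0% of all genes), and 7 were lower and 2 higher at 30000 (75%, beside 65.6%). The coactivator Maml2 changed by -0.57 ± 0.08 at 12000 (adjusted p = 1.5e-05) and -0.32 ± 0.09 at 30000 (adjusted p = 0.0030). Kat2b, an acetyltransferase that joins the complex, was lower at both (-0.26 ± 0.09 and -0.64 ± 0.10, adjusted p = 0.023 and 1.2e-05).

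Among genes of ligand endocytosis and receptor turnover, 2 fell and 2 rose of 12 at 12000, and 9 fell and 2 rose at 30000 (33.3% and 91.7% called, beside 38.0% and 65.6% of all genes). The ligand-activating ubiquitin ligases Mib1 and Mib2 stood at 109 to 124 and 19.4 to 24.7 CPM with 30000 fibers, below 211 to 229 and 42.1 to 49.0 CPM in the controls (log2 fold change -0.92 ± 0.06 and -1.05 ± 0.09, adjusted p = 1.9e-10 and 7.6e-09). At 12000 Mib1 was slightly lower (-0.19 ± 0.06, adjusted p = 0.015). Neurl1a, a ubiquitin ligase of the Neuralized family, rose from 3.84 to 7.78 CPM in the controls to 14.1 to 19.8 with 12000 fibers (1.57 ± 0.18, adjusted p = 2.2e-06) and 8.35 to 11.5 with 30000 (0.83 ± 0.23, adjusted p = 0.0040). Of the 2 other HES-type and related genes with a row, Hes6 was lower at both doses (-0.54 ± 0.10 and -0.85 ± 0.12, adjusted p = 0.00022 and 3.0e-06), and Bhlhe40 was higher at 12000 (0.26 ± 0.06, adjusted p = 0.0018).

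**Figure D4:**
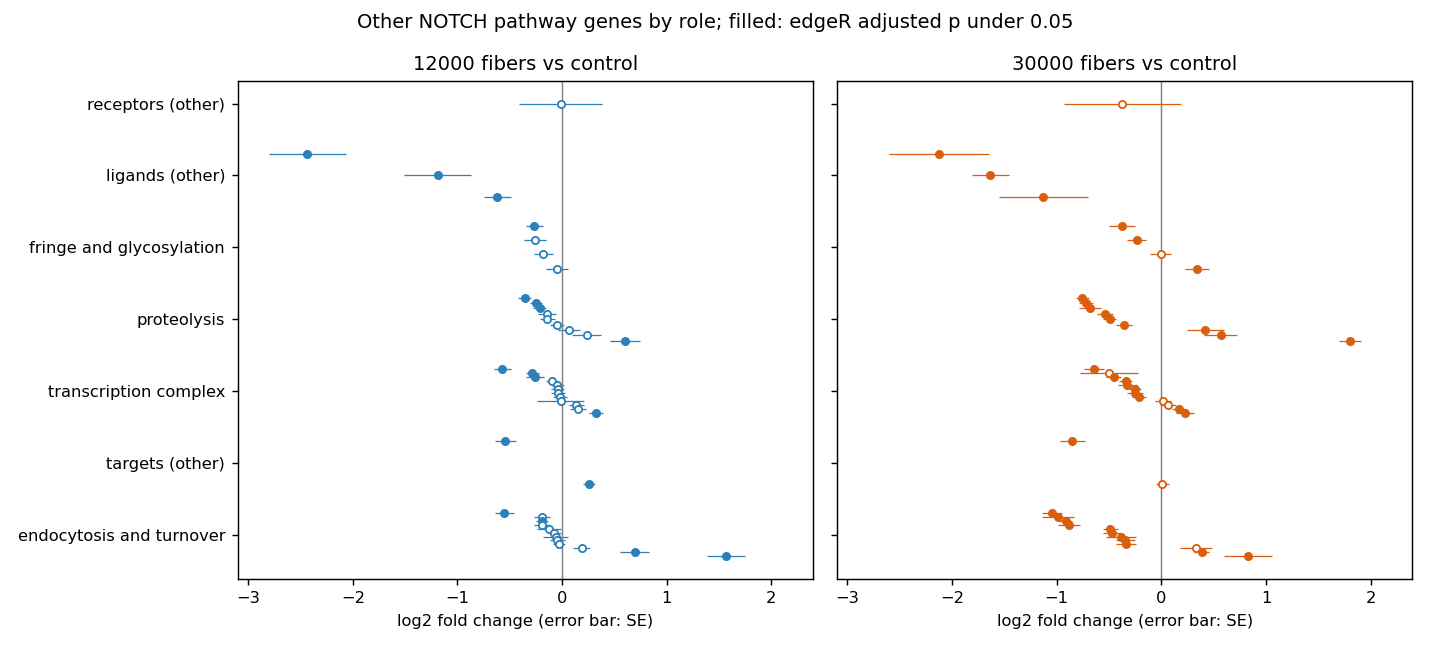
Log2 fold change with its SE (horizontal axis) of the 43 other NOTCH pathway genes tested, by role (vertical axis), at 12000 (left) and 30000 fibers (right) against control, filled where edgeR's adjusted p was under 0.05. The ligands Dll1, Dll4 and Dlk2 are left of 0 in both panels, and Psenen stands alone on the right at 30000 (1.80).

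Cell type markers were read beside all genes, of which 38.0% were called at 12000 against control (19.3% lower, 18.7% higher). At 30000 against control that share was 65.6% (33.4% lower, 32.2% higher). Of 11 basal cell markers tested, 10 fell at 12000 and 10 at 30000, and their summed level went from 2941 to 4523 CPM in the controls to 950.2 to 1215 with 12000 fibers and 607 to 778 with 30000. The marker not called at either dose was Dst. Its means were 436, 488 and 404 CPM, beside mean sums of 3545, 1073 and 691, so the sums understate the other falls. Those ran from -1.10 (Itga6) to -4.27 (Dapl1) at 12000 and from -1.75 (Itga6) to -5.34 (Col17a1) at 30000 on the log2 scale. Club and secretory markers fell in 10 of 11 cases at each dose (1955 to 4301, 182 to 253 and 384 to 577 CPM). The exception was Scgb1a1, the secretoglobin that defines club cells, which was not called at 12000 and rose at 30000, from 5.73 to 16.5 CPM in the controls to 175 to 228 CPM (log2 fold change 4.15 ± 0.30, adjusted p = 7.8e-07). Ciliated markers fell in 11 and 9 of 12 cases. Of 6 goblet markers 4 fell at each dose and Creb3l1 rose (0.73 ± 0.12 and 1.26 ± 0.12, adjusted p = 6.8e-05 and 4.1e-08). Of 10 alveolar type 2 markers, 1 rose and none fell at 12000, and 6 rose and 2 fell at 30000 (10% and 80% called). Their sum was 1877 to 3929 CPM in the controls, 3607 to 6396 with 12000 fibers and 4459 to 6590 with 30000, and the surfactant gene Sftpa1 rose at both doses (1.22 ± 0.42 and 2.84 ± 0.42, adjusted p = 0.043 and 0.00018). Of 8 alveolar type 1 markers 3 fell at 12000 and 4 at 30000 and none rose (2163 to 2596, 1791 to 2281 and 1237 to 1400.3 CPM). That is 37.5% and 50% called, all lower. Those shares were below the 38.0% and 65.6% of all genes called in either direction. They were above the 19.3% and 33.4% called lower. Of 11 pan-epithelial markers, 6 fell and 2 rose at 12000, and 10 fell and none rose at 30000, with median log2 fold changes of -0.33 and -0.73. Between the doses all 11 were lower at 30000 (median -0.77). Of 12 fibroblast markers tested, 10 rose at 12000 and 12 at 30000. In bulk RNA fewer cells of a type and less RNA per cell cannot be told apart, and the part of the cell mixture in the NOTCH values was not tested. A fit with the fibroblast level as a further term was run, and it covers fibroblast genes only. Their sums in the controls (8590 to 13342 CPM) did not overlap those with 12000 (15416 to 16811) or 30000 fibers (14258 to 17290). That fit therefore cannot separate the fibroblast level from exposure. In the fit with the fibroblast term the counts of called genes dropped to 937 at 12000 and 3427 at 30000 against control. In it Notch1, Jag2, Lfng, Hey1 and Nrarp were called lower at both doses, Notch2 and Jag1 lower at 30000, and Rbpj and Hes1 higher at 30000. Some were smaller in it at 30000 against control: Jag2 was at -3.00, Hey1 at -3.49, Notch1 at -1.30, Nrarp at -1.26 and Rbpj at 0.48 on the log2 scale (adjusted p = 1.2e-08, 0.00016, 5.5e-06, 0.026 and 0.044). Of 7 endothelial markers, the only rows were Pecam1 and Kdr, which together summed to 1.96 to 4.02 CPM over all libraries.

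The genes whose pattern was most like each member were ranked by Pearson r of log2(CPM + 1) over the 12 libraries, which share their doses and depths, among 12640 genes. For Jag2 the closest were Itgb4 (r = 0.998) and Itga6 (r = 0.997), integrin subunits that anchor basal cells and are both on the basal marker list, and then B3gnt3 (r = 0.994). Itgb4 had a mean of 804, 242 and 104 CPM in control, 12000 and 30000. Notch1 was closest to Pcsk6 (r = 0.996), Rgs12 (r = 0.995) and Itga6 (r = 0.990). Nrarp was closest to Aqp3 (r = 0.989), a water channel of basal cells, and Gabrp (r = 0.987) and Mall (r = 0.985). Gabrp is on the club and secretory marker list. Hey1 was closest to Epas1 (r = 0.992), which encodes the hypoxia factor HIF-2 alpha. Notch2 was closest to Itgb1 (r = 0.990), Jag1 to Col27a1 (r = 0.989), Notch3 to Ifi211 (r = 0.977) and Lfng to Cog2 (r = 0.959). The closest genes of Hey1, Notch2, Jag1, Notch3 and Lfng are not on the basal marker list. The 2 that rose had other neighbors. Rbpj was closest to Enpp2 (r = 0.991), Sfrp1 (r = 0.991) and Hspb6 (r = 0.988), with means of 9.36, 10.8 and 40.3 CPM for Enpp2, and Hes1 to Pcnp (r = 0.979).

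Taking deviations from the dose means removes the dose and leaves how libraries of 1 dose differ. Over the 12 libraries r was 0.83 for Hey1 with Nrarp, 0.73 for Hes1 with Hey1 and 0.65 for Hes1 with Nrarp. Positive values were not confined to pairs of targets: for the other members r with Nrarp ran from -0.23 (Rbpj) to 0.64 (Jag1). In the exposed libraries Hey1 held 0 to 8 counts, near the counting limit, so the r values with Hey1 are loosely set. The ligands Jag1 and Jag2 had r = 0.68, and Notch1 and Rbpj had r = -0.69. The closest genes also changed once dose was removed. For Notch1 they were Becn1 (r = 0.955), Rbbp8 (0.944) and Als2cl (0.943), none on the basal marker list. For Rbpj they were Gfpt1 (0.934), Prrx1 (0.924) and Ltbp2 (0.923). Itgb4 stayed close to Jag2 (0.934, after Srd5a1 at 0.951), and Gabrp to Nrarp (0.947, after Tesk2 at 0.951). Across all 12 libraries, dose included, Hes1 instead ran against Hey1 (r = -0.40) and Nrarp (r = -0.46). These are descriptions of 12 libraries from 4 mice.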

How the data were processed

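RNA sequencing of 24 libraries was deposited, of which the 12 epithelial ones were used here. The tools named in the submitters' processing notes were HISAT2 2.1.0, cutadapt 1.12, FastQC and bcl2fastq, on build mm10. Not given in the sources used here: how reads were counted, on which annotation and strand, and whether molecular barcodes were used. The values the authors deposited were raw counts per Ensembl transcript, not normalized, in which isoforms of a gene share reads. The fibroblast columns held 107814 entries for 71081 identifiers, so they could not be matched to genes and were not used.

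For each gene symbol the transcript that averaged highest was kept. The 12 libraries entered 1 fit of edgeR 4.0.16 (R 4.3.3; filterByExpr, TMM, robust quasi-likelihood F test, 2-sided, 9 residual degrees of freedom), with Benjamini-Hochberg adjustment over 13759 genes. SEs came from the F statistic, and 95% intervals from a t distribution with 9 degrees of freedom. Totals were 2799765 to 10583357 counts, so low transcripts are least precise at 30000 fibers. On counts simulated for 12000 fibers against control (13633 genes), 31, 47, 49 and 50 of 50 genes changed by 0.5, 1, 2 and 4 on the log2 scale were recovered. Coordinates and lengths are from GENCODE M21, on GRCm38 (mm10). Alternatives covered DESeq2 1.42.0, scaling, filtering, transcript choice, length, fibroblast level, the mouse and each library left out. Groups came from the sample titles.

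The numbers 1 to 4 name the mouse in the labels, so libraries are paired across doses. Deviations of libraries of the same mouse had a median correlation of 0.105 (12 pairs, -0.019 to 0.156), and of different mice -0.029 (36 pairs).

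The members and lists were chosen with earlier results of these data known. Named were all 10 members, up to 4 genes of a list by smallest p among those called (or up to 2 as values where none was), and up to 3 genes most like each member among those with a mean of at least 1 CPM. The values of 1 listed gene are not reported here.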

Additional observations from a re-analysis of the deposited data

How the results depend on the processing

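Over the 3 comparisons, the log2 fold changes of the 10 members were recomputed under 23 alternatives: 668 values kept their direction and side of the threshold, 9 lost the call, 1 gained it and 11 changed sign. The replicate block for the mouse changed no member's call and gave 5521, 9141 and 7769 called genes at 12000 against control, 30000 against control and 30000 against 12000. With the fibroblast level as covariate, which cannot be separated from exposure, the first 2 counts were 937 and 3427. Leaving out each library gave 4441 to 5414, 8605 to 9059 and 7067 to 7901 called genes, with 7, 8 and 4 to 5 members lower and 0, 2 and 2 higher. Members called higher at 30000 against control numbered 1 on the second highest transcript and 1 with the length-trend offset, and between the doses 1 on the second highest transcript. Values that changed sign while not called at 12000 were Hes1 at 0.011 without control mouse 4 and 0.019 with the fibroblast covariate, Notch2 at -0.030 without control mouse 1, -0.019 without the 12000-fiber library of mouse 3, -0.14 with the covariate and -0.0013 in the fit of all transcripts, and Rbpj at -0.0092 without control mouse 1 and -0.18 with the covariate. On the second highest transcript Hes1 was at -0.67 and -0.52 (30000 against control and against 12000) and Notch3 at -0.96 (30000 against 12000). Leaving out single libraries, the 12000-fiber values ranged from -0.064 to 0.011 for Hes1, -0.030 to 0.032 for Notch2 and -0.0092 to 0.099 for Rbpj. The causes were not tested. Hey1 was filtered out where only the 30000 and 12000 groups were fitted. At 30000 fibers depth limits Hey1 (0 to 4 counts per library) and Lfng (3 to 11) most.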
